A study of Mus musculus with 6 samples.

Results

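In all, 10 imprinted genes with roles in growth were followed through a transcriptome comparison of cultured mouse astrocytes with and without a mutant BRAF: H19, Igf2, Igf2r, Dlk1, Meg3, Peg3, Mest, Plagl1, Cdkn1c and Grb10. They were taken by name from a table of normalized counts, and are 10 of its 55357 gene identifiers. The names were chosen by values of this same comparison. Differences between the groups are therefore given for these 10 genes as a description, without p-values. Whether each of them passed the fit over all genes is stated, but nothing is read from it. The cells were primary cortical astrocytes grown from C57BL/6 mouse embryos on embryonic day 18, first in medium with serum and, after replating, in medium with HB-EGF and B-27 supplement. In the KE group, 3 cultures received a plasmid that expresses FLAG-tagged BRAF K499E, a mutation associated with RASopathies, from the CMV promoter, and were collected 48 hours after transfection. The 3 NT cultures were non-transfected and carry the genotype label naive. No culture in the comparison received an empty plasmid or wild-type BRAF, so the effects of transfection and of the mutant protein cannot be told apart, and the CMV promoter is not specific to a cell type. The labels do not say whether the 3 cultures of a group came from separate preparations, and the p-values given for other genes then measure the spread between these cultures, which may be technical.

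An imprinted gene is transcribed mainly from the copy inherited from 1 parent, and DNA methylation laid down in the germline marks which copy that is. H19, a long noncoding RNA, and Igf2, a fetal growth factor, lie side by side and are read from opposite parental copies, with the insulator protein CTCF acting at the control region between them. Igf2r encodes the receptor that takes IGF2 to the lysosome, Grb10 an adaptor that damps insulin and IGF receptor signaling, and Cdkn1c an inhibitor of cyclin-dependent kinases. Dlk1 encodes a transmembrane relative of the Notch ligands and is the neighbor of the noncoding RNA Meg3. Peg3 and Plagl1 encode zinc finger proteins and Mest a protein of the alpha/beta hydrolase fold, and Plagl1 is known as a regulator of other imprinted genes. Much of this family is expressed strongly in the embryo and falls after birth. The libraries measure RNA from both parental copies together, so nothing below separates the alleles.

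The promoters are shown for the 4 protein-coding genes among the 10 whose KE and NT ranges did not overlap, and which of the annotated starts these cultures used was not measured. Each sequence runs 5′ to 3′ on the strand of the gene, from 250 bases before to 50 bases after a RefSeq transcript start in the GRCm38.p6 build. The start was chosen because the last bases of its window occur in the canonical transcript. They lay 30, 75, 192 and 24 bases into that transcript for Mest, Peg3, Plagl1 and Grb10. A RefSeq start can therefore lie inside the canonical transcript, as for Plagl1. For Mest 2 starts matched and the first is shown. Capitals mark the hexanucleotide TGCCGC on either strand (it reads GCGGCA on the opposite one), the letters known to be bound in methylated form by ZFP57, a zinc finger protein that maintains imprints.
Mest, chr6:30737800-30738099, plus strand: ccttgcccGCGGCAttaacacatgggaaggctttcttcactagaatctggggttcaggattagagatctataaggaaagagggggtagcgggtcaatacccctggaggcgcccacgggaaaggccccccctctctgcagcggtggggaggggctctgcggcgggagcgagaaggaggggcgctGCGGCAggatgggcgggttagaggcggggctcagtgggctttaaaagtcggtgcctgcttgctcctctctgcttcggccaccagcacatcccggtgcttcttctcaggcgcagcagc
Peg3, chr7:6730370-6730669, minus strand: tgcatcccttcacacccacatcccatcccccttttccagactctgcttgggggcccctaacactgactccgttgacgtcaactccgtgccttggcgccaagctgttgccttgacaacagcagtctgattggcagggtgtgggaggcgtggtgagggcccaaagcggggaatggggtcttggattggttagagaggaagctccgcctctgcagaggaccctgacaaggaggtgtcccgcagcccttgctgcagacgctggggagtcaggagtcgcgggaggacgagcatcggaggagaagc
Plagl1, chr10:13090582-13090881, plus strand: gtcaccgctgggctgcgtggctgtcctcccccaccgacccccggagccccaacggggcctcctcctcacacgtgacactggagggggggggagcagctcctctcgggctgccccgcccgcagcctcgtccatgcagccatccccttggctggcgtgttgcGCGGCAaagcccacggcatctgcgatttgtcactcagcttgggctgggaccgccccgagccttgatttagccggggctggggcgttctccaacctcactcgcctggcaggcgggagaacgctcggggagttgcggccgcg
Grb10, chr11:12037371-12037670, minus strand: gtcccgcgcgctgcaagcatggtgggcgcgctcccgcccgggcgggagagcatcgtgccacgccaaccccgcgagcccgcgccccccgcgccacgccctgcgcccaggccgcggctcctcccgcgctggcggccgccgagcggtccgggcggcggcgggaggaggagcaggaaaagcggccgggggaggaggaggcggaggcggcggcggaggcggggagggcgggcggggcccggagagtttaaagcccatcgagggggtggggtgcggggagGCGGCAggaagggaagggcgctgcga
The Mest window holds the hexanucleotide at 2 places, the Plagl1 and Grb10 windows at 1 place each and the Peg3 window at none. Over the 15 starts that RefSeq gives for 8 of the 10 genes, 6 windows from 5 genes held TGCCGC on either strand, and 11.6% of all 32851 promoter windows of 300 bases did. Of the 6 windows, 2 are Mest starts 3 bases apart that hold the same hits. Windows with 2 or more hits made up 1.5% of all promoters. The AP-1 letters TGANTCA and the ETS letters CCGGAAGT, which are known to be bound by transcription factors that act after ERK signaling, were found on either strand in 0 of the 15 windows, and in 7.8% and 3.9% of all promoters. The 3 motifs do not overlap in these windows, where only the first was found. The windows of Mest, Peg3, Plagl1 and Grb10 hold 17, 13, 26 and 45 CpG dinucleotides, against a median of 7 over all promoters. The hexanucleotide itself holds a CpG, and the shares over all promoters were not matched for CpG content, so no excess is read from them. A match of these letters is a description of the sequence and not a binding site.

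Of the noncoding products of these genes, the miRNAs inside H19 and Mest are shown because the level of both hosts was lower in KE cultures. Capitals mark the seed, bases 2 to 8, and the mature sequences are those of RefSeq.
miR-675-5p, within H19: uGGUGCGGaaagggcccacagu
miR-675-3p, within H19: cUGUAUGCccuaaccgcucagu
miR-335-5p, within Mest: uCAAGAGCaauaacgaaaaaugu
miR-335-3p, within Mest: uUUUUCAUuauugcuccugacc
No 2 of these seeds are alike. The Mir675 hairpin lies at chr7:142130801-142130884 and the Mir335 hairpin at chr6:30741298-30741395 (GRCm39). The table lists both miRNA genes at 0 in all 6 cultures. The libraries were made from mRNA and do not measure mature miRNAs, so only the hosts are followed here.

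Transfection was visible in the table. The Braf row stood at 35025, 34933 and 40978 normalized counts in KE, against 925, 811 and 946 in NT. The cultures held approximately 24500000 to 34100000 reads assigned to genes, KE replicate 2 the fewest, estimated from the smallest step between low values, and 1 read was worth 0.905 to 1.25 normalized counts. Of 15280 genes with a mean of at least 10 normalized counts, 51.3% passed the test between the groups (limma, Benjamini-Hochberg adjusted p under 0.05), 25.3% higher and 26.0% lower in KE. In 59.9% of them the KE and NT ranges did not overlap. Changes are therefore common in this comparison, and they include markers of other cell types. All 15 of 15 microglia and macrophage markers fell, with a median log2FC of −3.31, and their summed level was 5347 to 7374 normalized counts in KE and 44572 to 53055 in NT. All 10 of 10 proliferation markers fell as well, with a median of −0.97 and a summed level of 34088 to 36715 in KE and 75027 to 77555 in NT. Of 11 tested astrocyte markers, 7 rose and 2 fell, and their summed level was 195735 to 201788 in KE and 143565 to 152402 in NT, while Gjb6 stayed under the filter. None of these markers was at 0 in every culture. In bulk RNA a lower level can come from fewer cells of a type or from less RNA per cell, and these cannot be told apart here.

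All 10 imprinted growth genes passed the filter on low values. H19, Mest and Peg3 were lower in KE cultures, Plagl1 and Grb10 were higher, and Igf2, Igf2r, Dlk1, Meg3 and Cdkn1c did not pass the threshold of the fit over all genes. That is 5 of 10 called, 2 upward and 3 downward, where the background was 51.3% of genes in either direction, 25.3% upward and 26.0% downward. The KE and NT ranges did not overlap for the same 5 genes, against 59.9% of all genes. Since these names were chosen by the same values, nothing is read from these counts. In alternative fits Meg3 passed as higher with the replicate block, under quantile normalization and without KE replicate 2. Dlk1 passed as higher without NT replicate 3. The log2FC (KE minus NT, of log2(normalized count + 1)) ran from −1.45 for H19 to 0.90 for Plagl1, with a median of 0.23, and the median of all tested genes was 0.00. Igf2, Dlk1, Peg3, Mest and Plagl1 are known as paternally expressed, and H19, Igf2r, Meg3, Cdkn1c and, in most tissues, Grb10 as maternally expressed.

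**Figure D1:**
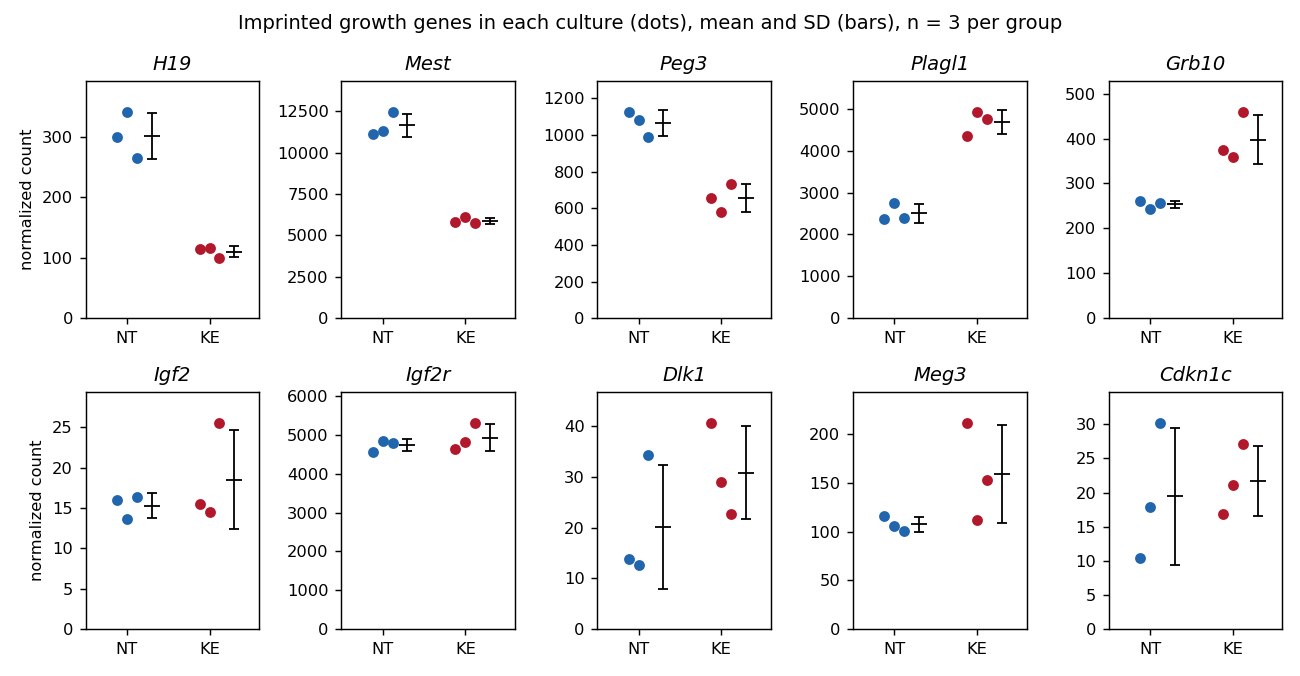
Normalized counts (vertical axis, from 0, its own scale in each panel) of the 10 imprinted growth genes in each culture, with dots for the 3 NT (blue) and 3 KE (red) cultures and bars for the mean and SD. The groups lie apart for H19, Mest, Peg3, Plagl1 and Grb10, and overlap for Igf2, Igf2r, Dlk1, Meg3 and Cdkn1c.

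H19 (ENSMUSG00000000031, chr7:142129262-142133957, minus strand, GRCm39), the noncoding RNA of the H19-Igf2 domain, measured 114, 116 and 99.2 normalized counts in KE, against 299, 341 and 265 in NT. Every KE culture lay below every NT culture, and the KE cultures lay close together. The group means were 109.8 ± 9.24 in KE and 302 ± 38.3 in NT (SD, n = 3 each), 2.75-fold lower in KE, with a log2FC of −1.45 (SE 0.14). Igf2 (ENSMUSG00000048583, chr7:142204503-142220694, minus strand), the growth factor gene of the same domain, measured 15.5, 14.4 and 25.6 in KE and 16.0, 13.6 and 16.3 in NT. KE replicate 3 was the highest culture and the other 5 lay together, so the groups overlapped. The means were 18.5 ± 6.14 and 15.3 ± 1.499 (SD, n = 3 each), with a log2FC of 0.22 (SE 0.33) that became −0.03 without KE replicate 3. These Igf2 values correspond to approximately 11.5 to 28.2 reads per culture. The ratio of the H19 to the Igf2 normalized count, not corrected for length, was 16.2 to 25.1 in NT and 3.88 to 8.04 in KE, lowest in KE replicate 3, where Igf2 was highest.

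Among all genes with a mean of at least 50 normalized counts, those whose centered log2 profile over the 6 cultures lay nearest to H19 were Lpl (Euclidean distance 0.123), Emp3 (0.240), Plcg2 (0.261), Lfng (0.268) and Pstpip1 (0.280). Lpl, which encodes lipoprotein lipase, averaged 837 normalized counts in KE and 2248 in NT. Plcg2 and Pstpip1 are known for their expression in immune cells. For Igf2 the nearest were Ep300 (0.272), Gpbp1l1 (0.297), Setd4 (0.306), Shoc2 (0.325) and Hook1 (0.327), all with a log2FC between 0.19 and 0.27. Genes near in profile over the same cultures have a like log2FC by the way they were picked, so nothing is read from it. The Igf2 profile also rests on few reads. The fall of H19 stood beside that of the microglia and macrophage markers (15 of 15) and of the proliferation markers (10 of 10). Mural and endothelial markers (6 of 9 tested fell and 1 rose, summed level 3357 to 3433 in KE and 4850 to 6968 in NT), oligodendrocyte lineage markers (5 of 7 fell and 1 rose, 28287 to 33119 and 35705 to 35935) and fibroblast and leptomeningeal markers (7 of 13 fell and 4 rose, 67886 to 74820 and 54958 to 67953) also moved, and 1 of 8 neuron markers rose and 2 fell (6901 to 7391 and 8945 to 9677). Igfbp2, which is also in the IGF axis list, made up most of the fibroblast and leptomeningeal sum, and without it (left out after its values were seen) the other 13 genes summed to 9112 to 10002 in KE and 16384 to 20142 in NT. Of the tested markers, 77.8% of the mural and endothelial, 85.7% of the oligodendrocyte lineage and 84.6% of the fibroblast and leptomeningeal list were called. For neuron markers the share was 37.5%, and for all tested genes 51.3% (25.3% upward and 26.0% downward). The part of any of these cell types in the H19 value was not tested.

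The neighbors of H19 and Igf2 on chromosome 7 did not move as a block. Beyond Igf2, Ins2 and Phlda2 were listed at 0 in all cultures, and Tspan32 and Kcnq1 averaged 1.62 and 0.16 normalized counts. Kcnq1ot1, the noncoding RNA that silences genes of the neighboring domain, fell from 265 ± 32.9 to 161 ± 25.7 (SD, n = 3 each; log2FC −0.72, SE 0.15, limma adjusted p = 0.00211). Slc22a18, a transporter gene of that domain, rose from 23.4, 26.4 and 20.6 in NT to 105, 111 and 87.8 in KE (log2FC 2.06, SE 0.21, limma adjusted p = 1.19e-05), and it had the largest log2FC among the tested imprinted genes listed. Cdkn1c, which Kcnq1ot1 is known to silence on the paternal copy, is described with the cell cycle genes. Cd81 and Tssc4 rose with log2FC of 0.46 and 0.49, Nap1l4 fell by 0.22 on the log2 scale, and Ascl2 (0.13, SE 0.25) and Osbpl5 (0.11, SE 0.07) did not pass.

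Igf2r (ENSMUSG00000023830, chr17:12901293-12988614, minus strand), the IGF2 and lysosomal sorting receptor, measured 4638, 4819 and 5316 normalized counts in KE and 4552, 4856 and 4797 in NT. Only KE replicate 3 lay above the NT cultures. The means were 4924 ± 351 and 4735 ± 161 (SD, n = 3 each), with a log2FC of 0.05 (SE 0.06). Airn, the noncoding RNA that overlaps Igf2r on the opposite strand and is known to silence it on the paternal copy, averaged 36.4 ± 9.62 in KE and 50.6 ± 10.7 in NT and did not pass (log2FC −0.48, SE 0.27). The kit marks strand, but the strand setting of the counting is not given in the sources used here, so reads of this pair may be split between them. Slc22a2 and Slc22a3, the other imprinted genes of this domain, were listed at 0 in all cultures.

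Grb10 (ENSMUSG00000020176, chr11:11880498-11988683, minus strand), the adaptor that binds insulin and IGF receptors, measured 374, 359 and 459 in KE and 260.2, 243 and 256 in NT. The NT cultures lay close together and every KE culture lay above them, KE replicate 3 the farthest. The means were 397 ± 54.0 and 253 ± 8.73 (SD, n = 3 each), 1.57-fold higher in KE, with a log2FC of 0.64 (SE 0.12). Its neighbor Cobl scattered within both groups, from 18.5 to 73.7 in KE and from 23.8 to 55.7 in NT, with a log2FC of −0.15 (SE 0.49). Ddc, on the other side, averaged 9.90 and stayed under the filter. Grb14, a relative of Grb10 that also binds these receptors, averaged 316 ± 18.2 in KE and 322 ± 12.03 in NT and did not pass (log2FC −0.03, SE 0.10).

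Igf2, Igf2r and Grb10 belong to the wider IGF axis, whose list here holds other genes and not these. Of its 22 listed genes 17 were tested, 3 rose, 7 fell and 7 did not pass, 58.8% called against 51.3% of all tested genes (17.6% upward and 41.2% downward against 25.3% and 26.0%), with a median log2FC of −0.07 beside 0.00 over all tested genes. Igf1, the other ligand of the IGF1 receptor, measured 82.2, 149 and 50.03 normalized counts in KE and 1232, 1305 and 859 in NT. Every KE culture lay below every NT culture, 12.1-fold lower on average, with a log2FC of −3.70 (SE 0.31, limma adjusted p = 2.80e-06). Microglia are known to express Igf1, and the microglia and macrophage markers fell in the same cultures, but their part in the Igf1 value was not tested. Of the receptors and their substrates, Igf1r and Irs1 fell, with log2FC of −0.26 and −0.49, while Insr (0.00, SE 0.08) and Irs2 (−0.08, SE 0.07) did not pass. Of the IGF binding proteins, Igfbp3 (log2FC 1.07, SE 0.07, limma adjusted p = 4.63e-07) and Igfbp2 (0.48, SE 0.08) rose, Igfbp4 (−0.68, SE 0.11) and Igfbp5 (−0.46, SE 0.11) fell and Igfbp7 (−0.07, SE 0.10) did not pass, while Igfbp6 stayed under the filter and Igfbp1 was listed at 0. The Igfbp3 means were 116564 ± 6274 normalized counts in KE and 55474 ± 2838 in NT (SD, n = 3 each). Of the Igf2 mRNA-binding proteins, Igf2bp1 stayed under the filter, Igf2bp3 fell from 326 ± 54.3 to 129 ± 2.85 (log2FC −1.31, SE 0.14, limma adjusted p = 1.40e-05), and Igf2bp2 rose from 758 ± 3.03 to 956 ± 38.7 (0.33, SE 0.07, limma adjusted p = 0.00205). Stc1, a secreted inhibitor of the protease PAPP-A that frees IGFs from their binding proteins, fell by 0.84 on the log2 scale (SE 0.13, limma adjusted p = 0.000299), and Pappa itself did not pass (−0.04, SE 0.17).

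**Figure D2:**
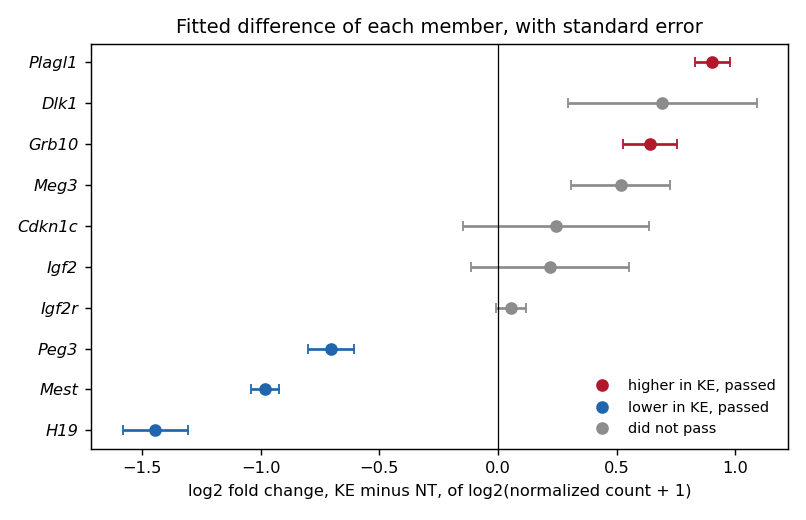
Log2 fold change (horizontal axis, KE minus NT, of log2(normalized count + 1)) of each imprinted growth gene, points with bars of 1 SE, colored by whether the gene passed the test over all genes. Plagl1 and Grb10 lie above 0, H19, Mest and Peg3 below, and the bars of Dlk1, Cdkn1c and Igf2 are the widest.

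Dlk1 (ENSMUSG00000040856, chr12:109418749-109429262, plus strand), the Notch ligand relative, measured 40.7, 29.1 and 22.7 normalized counts in KE and 13.7, 12.6 and 34.3 in NT. NT replicate 3 lay among the KE cultures and the other NT cultures lay below them. The means were 30.9 ± 9.14 and 20.2 ± 12.2 (SD, n = 3 each), with a log2FC of 0.69 (SE 0.40), which ran from 0.44 without NT replicate 2 to 1.13 without NT replicate 3. Dlk1 did not pass in the main fit, but passed as higher without NT replicate 3. Meg3 (ENSMUSG00000021268, chr12:109506877-109538165, plus strand), the noncoding RNA read from the maternal copy of the same domain, measured 212, 112 and 153 in KE and 116, 105 and 101 in NT. KE replicates 1 and 3 lay above the NT cultures, and KE replicate 2 lay among them. The means were 159 ± 50.2 and 107 ± 7.91 (SD, n = 3 each), with a log2FC of 0.52 (SE 0.21), which ran from 0.29 without KE replicate 1 to 0.74 without KE replicate 2. Meg3 did not pass in the main fit, but passed as higher without KE replicate 2, with the replicate block (0.52) and under quantile normalization (0.65). Rian, a noncoding RNA read downstream of Meg3 in the same direction, measured 129, 152 and 115 in KE and 152, 181 and 216 in NT, and passed as lower in KE (log2FC −0.46, SE 0.17, limma adjusted p = 0.0367). KE replicate 2 and NT replicate 1 of Rian had nearly the same value, and the call was lost without KE replicate 1 or 3 and without NT replicate 2 or 3, with log2FC from −0.46 to −0.33. Rtl1, Mirg and Dio3 of this domain averaged 0.30, 2.21 and 0.17 normalized counts.

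Mest (ENSMUSG00000051855, chr6:30723546-30752058, plus strand), the hydrolase-fold gene, measured 5816, 6107 and 5749 normalized counts in KE and 11142, 11333 and 12454 in NT. Every KE culture lay below every NT culture, with a gap several times the spread within either group. The means were 5890 ± 190.4 and 11643 ± 709 (SD, n = 3 each), 1.98-fold lower in KE, with a log2FC of −0.98 (SE 0.06). Copg2, which overlaps the end of Mest on the opposite strand, averaged 2491 ± 173 in KE and 2357 ± 153 in NT and did not pass (log2FC 0.08, SE 0.07). Klf14, farther along, averaged 0.16 normalized counts.

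Peg3 (ENSMUSG00000002265, chr7:6706882-6733468, minus strand), the zinc finger gene, measured 656, 579 and 733 in KE and 1125, 1084 and 989 in NT. Again every KE culture lay below every NT culture. The means were 656 ± 77.0 and 1066 ± 69.8 (SD, n = 3 each), 1.63-fold lower in KE, with a log2FC of −0.70 (SE 0.10). Usp29, which shares the promoter region of Peg3 and is read the other way, measured 11.5, 13.5 and 8.63 in KE and 18.3, 24.0 and 34.0 in NT. Its groups did not overlap (log2FC −1.09, SE 0.35, limma adjusted p = 0.0219), but the call was lost without KE replicate 3 (−0.93), NT replicate 2 (−1.11) or NT replicate 3 (−0.87). Zim1, the maternally expressed neighbor, measured 5.88, 13.2 and 7.72 in KE and 11.1, 17.5 and 50.7 in NT, and did not pass (−1.26, SE 0.53) except without NT replicate 1 (−1.71). Zfp264 was listed at 0 in all cultures.

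Plagl1 (ENSMUSG00000019817, chr10:12936248-13007438, plus strand), the zinc finger transcription factor, measured 4361, 4923 and 4748 normalized counts in KE and 2364, 2758 and 2391 in NT. Every KE culture lay above every NT culture. The means were 4677 ± 288 and 2504 ± 219.8 (SD, n = 3 each), 1.87-fold higher in KE, with a log2FC of 0.90 (SE 0.07). Of its relatives, Plagl2 fell from 901 ± 73.1 to 623 ± 60.9 (log2FC −0.53, SE 0.09, limma adjusted p = 0.000758), and Plag1 varied from 12.4 to 44.1 in KE and from 4.56 to 25.2 in NT and did not pass (1.30, SE 0.59) except without KE replicate 1 (1.84, limma adjusted p = 0.0281) or NT replicate 2 (limma adjusted p = 0.0163).

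Cdkn1c (ENSMUSG00000037664, chr7:143012069-143014806, minus strand), the imprinted kinase inhibitor, measured 16.9, 21.1 and 27.1 in KE and 10.4, 17.8 and 30.3 in NT. The lowest and the highest culture were both NT. The means were 21.7 ± 5.13 and 19.5 ± 10.05 (SD, n = 3 each), with a log2FC of 0.24 (SE 0.39) that ran from −0.12 without NT replicate 1 to 0.61 without NT replicate 3, at approximately 10.5 to 31.8 reads per culture. Of the other inhibitors of its family, Cdkn1a rose (11880 ± 201 in KE, 7863 ± 405 in NT; log2FC 0.60, SE 0.06, limma adjusted p = 6.35e-06) and Cdkn1b did not pass (0.04, SE 0.06). The kinase and cyclins that they inhibit fell, with log2FC of −1.24 for Ccne2, −0.92 for Cdk2 and −0.57 for Ccne1 (limma adjusted p = 3.31e-07, 5.84e-07 and 0.000143).

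**Figure D3:**
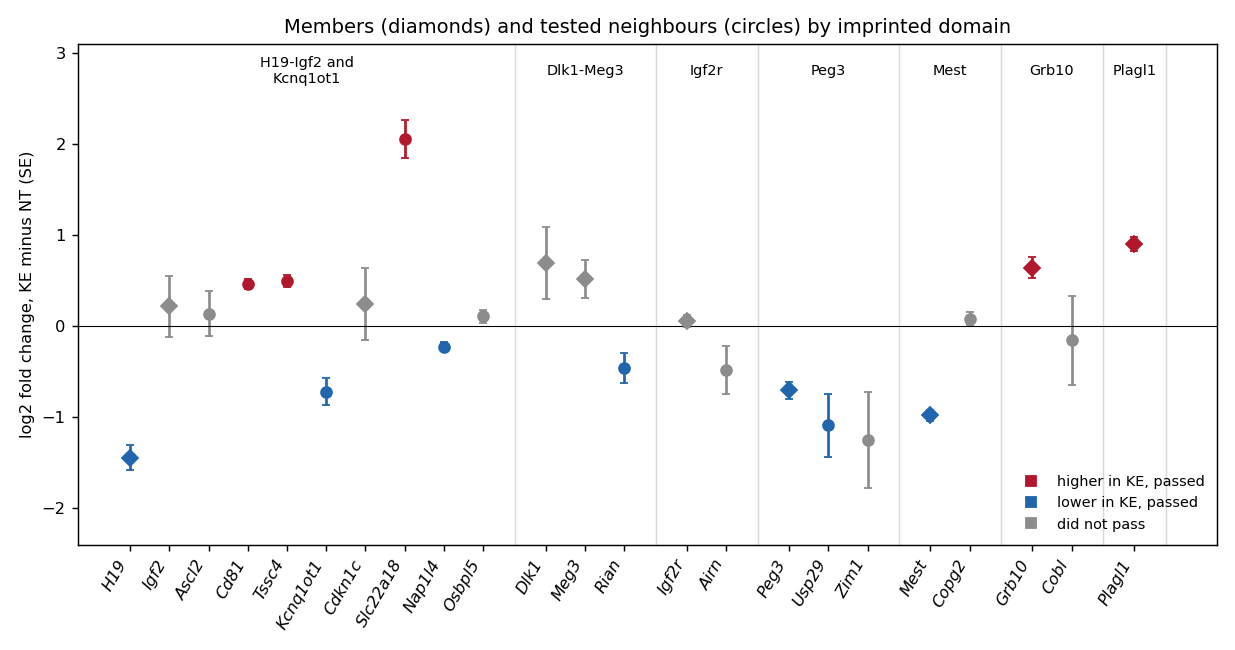
Log2 fold change (vertical axis, KE minus NT, of log2(normalized count + 1)) of the imprinted growth genes (diamonds) and their tested imprinted neighbors (circles), grouped by domain, with bars of 1 SE and colors for genes that passed the test over all genes. H19 at −1.45 and Slc22a18 at 2.06 are the extremes of the chromosome 7 domains, and Meg3 and Rian lie on opposite sides of 0.

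Compared per kilobase of the canonical Gencode transcript, the 10 genes differed widely in level. In NT cultures the order was Mest (9226 ± 562 normalized counts per kb), Igf2r (529 ± 17.99), Plagl1 (465 ± 40.8), H19 (136 ± 17.3), Peg3 (122 ± 7.98), Meg3 (64.8 ± 4.78), Grb10 (49.7 ± 1.71), Cdkn1c (10.1 ± 5.21), Dlk1 (4.51 ± 2.73) and Igf2 (4.12 ± 0.40; SD, n = 3 each). Igf2r and Plagl1 overlapped in this order, as did H19 and Peg3, and Dlk1 overlapped with both Cdkn1c and Igf2, whose own ranges lay apart. In KE cultures Plagl1 (869 ± 53.4 per kb) stood above Igf2r (550.2 ± 39.2), and H19 (49.6 ± 4.18) stood below Meg3 (96.0 ± 30.3), Grb10 (78.1 ± 10.6) and Peg3 (74.9 ± 8.80). Mest remained the highest (4668 ± 151 per kb), and Cdkn1c (11.2 ± 2.66), Dlk1 (6.88 ± 2.04) and Igf2 (4.99 ± 1.66) remained the lowest. The place of Meg3 depends on the transcript, since per kb of the longest annotated transcript its NT mean was 7.38, below Grb10 at 45.2 and Cdkn1c at 9.73, whereas Mest kept the first place at 1860.

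**Figure D4:**
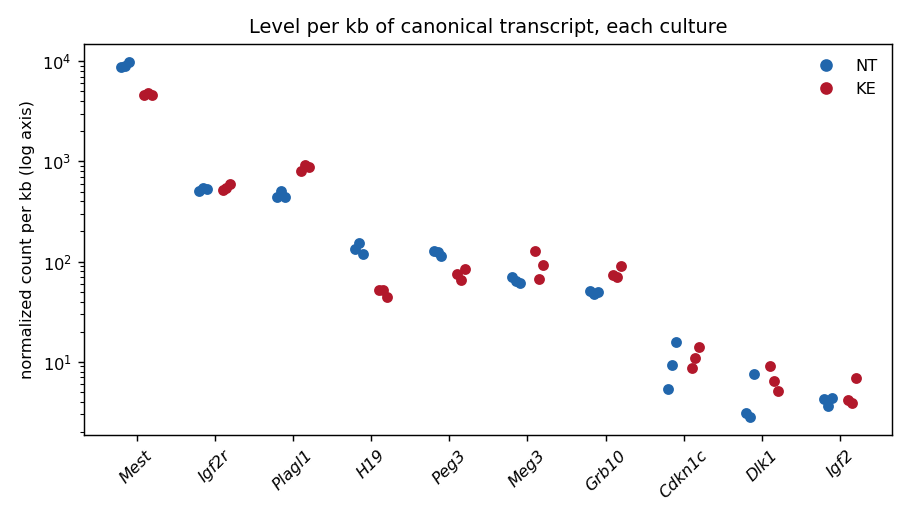
Normalized counts per kb of canonical transcript (vertical axis, log scale) of the imprinted growth genes in each NT (blue) and KE (red) culture, ordered by the NT mean. Mest is the highest in every culture, and Cdkn1c, Dlk1 and Igf2 lie together at the bottom.

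Other imprinted genes were listed to set the 10 beside the rest of their class. Of the 57 that the counts hold, 39 were tested, 17 rose, 11 fell and 11 did not pass, 71.8% called against 51.3% of all tested genes (43.6% upward and 28.2% downward against 25.3% and 26.0%), with a median log2FC of 0.08 beside 0.00 over all tested genes. After Slc22a18, the largest rises were in Sfmbt2, a Polycomb-related gene (75.1 ± 6.22 in KE, 36.4 ± 2.33 in NT; log2FC 1.02, limma adjusted p = 0.00107), and Tnfrsf23, a decoy receptor gene near the Cdkn1c domain (0.78, limma adjusted p = 0.000157). The largest falls with a mean of at least 50 were in Peg12 of the Prader-Willi region (632 ± 31.0 in KE, 1568 ± 27.8 in NT; −1.31, limma adjusted p = 8.55e-08), in Kcnq1ot1 and in Qpct (−0.70, limma adjusted p = 0.00126). Peg10 and Sgce, which are read in opposite directions from a shared promoter region, rose with log2FC of 0.76 and 0.48. Of the other tested genes of the Prader-Willi region and its border, Ndn (0.48), Snrpn (0.27) and Atp10a (0.56) rose, and Mkrn3 (0.05, SE 0.17) and Ube3a (−0.15, SE 0.08) did not pass. The Snrpn call was lost without KE replicate 2 or NT replicate 1.

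The listed imprint control factors mostly fell. The list mixes genes that set or keep methylation with the Tet genes, whose products oxidize 5-methylcytosine, and with the cohesin genes Rad21 and Smc3. Its falls therefore do not all bear on imprints in the same direction. They include Tet1 (log2FC −0.67), Tet3, Rad21 (−0.58) and Smc3 (−0.42), while Tet2 did not pass. Of 17 tested of 20 listed, 0 rose by limma, 13 fell and 4 did not pass, 76.5% called against 51.3% of all tested genes (0% upward and 76.5% downward against 25.3% and 26.0%). The median log2FC was −0.52, and 0 were higher at an unadjusted p under 0.05. The maintenance DNA methyltransferase gene Dnmt1 fell from 8153 ± 337 to 4071 ± 128 (2.003-fold lower, SE 0.06 of the log2FC) and its cofactor Uhrf1 from 7675 ± 369 to 3674 ± 157 (−1.06, SE 0.06), each with a limma adjusted p of 1.29e-07. Tet3, which encodes a dioxygenase that oxidizes 5-methylcytosine, fell by 1.06 (limma adjusted p = 8.72e-07). Zfp57, whose product binds the hexanucleotide marked in the promoters, fell from 208 ± 12.5 to 138 ± 30.6 (−0.61, SE 0.17, limma adjusted p = 0.00970). Its partner genes Trim28 and Setdb1 fell, with log2FC of −0.52 and −0.51, as did Ctcf, for the insulator protein of the H19-Igf2 domain, with −0.50. Tet2, Zfp445, Arid4a and Arid4b did not pass, with log2FC from 0.00 to 0.18, and Arid4a passed as higher only without KE replicate 2 (0.27). Dnmt1 and Uhrf1 are known to be highest in dividing cells, and the 10 proliferation markers fell in the same cultures with a median log2FC of −0.97, but their part in these values was not tested. No methylation was measured in these cultures.

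**Figure D5:**
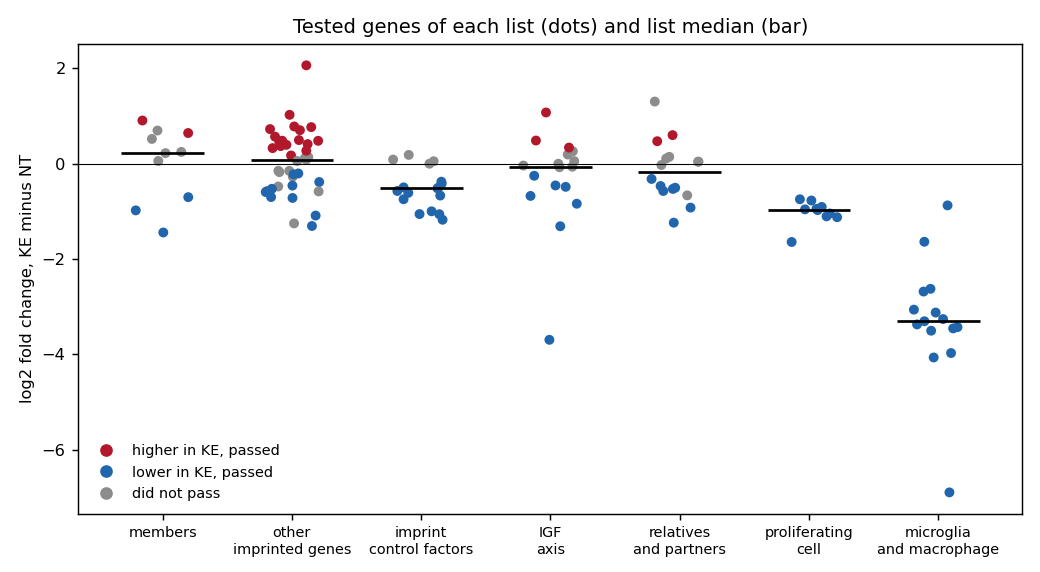
Log2 fold change (vertical axis, KE minus NT, of log2(normalized count + 1)) of each tested gene of the lists, 1 dot per gene, with a bar at the list median and colors for genes that passed the test over all genes. The imprinted growth genes (labeled members) spread on both sides of 0 around a median of 0.23, while the imprint control factors, proliferation markers and microglia and macrophage markers have medians of −0.52, −0.97 and −3.31.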

How the data were processed

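Poly(A)-selected RNA of 3 KE and 3 NT cultures was sequenced from TruSeq stranded mRNA libraries. The authors trimmed, aligned and quantified reads with Trim Galore, STAR and Salmon, and deposited 1 table of gene counts divided by DESeq2 size factors, a normalized signal that is not whole reads. The methods name GRCm39 for mouse and the labels GRCh38, and mention a batch adjustment without naming batches. Positions and transcript lengths came from Gencode vM39 (GRCm39), which held 54749 of the 55357 identifiers, and promoters and miRNAs from RefSeq (GRCm38.p6), where H19 and Cdkn1c had no promoter entry. Genes at 0 in all cultures numbered 29858.

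Genes with a mean of at least 10 were fitted on log2(normalized count + 1) with limma 3.58.1 (variance trend, no covariate, two-sided, R 4.3.3), and p-values were Benjamini-Hochberg adjusted over all 15280 genes at a threshold of 0.05. "Rose" and "fell" mean past this threshold. The fit was first run on simulated counts in which far fewer genes changed than here, which checks the code and not its error rate in these data. Tables were made with Python 3.11.15 and pandas 2.3.3.

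The 10 genes and all lists (other imprinted genes, IGF axis, imprint control factors, relatives and partners, cell type markers) were chosen with earlier results of these data known. Named from each list were the called genes with the 3 largest rises and 3 largest falls at a mean of at least 50, the neighbors of each domain, the 5 genes nearest in profile to H19 and to Igf2, and Braf. Further list genes (such as Grb14, Plagl2, Zfp57, Trim28, Igf1r, Igfbp4, Peg10 and Ndn) were named for their role after their values were seen. Alternatives were another pseudocount, filter, scaling, variance model, the replicate block, and leaving out each culture. No fold change or p-value of the authors was used.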

Additional observations from a re-analysis of the deposited data

How the results depend on the processing

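Over 14 alternative settings, 1177 of 1209 recomputed values and counts kept their call or lack of one, with the sign of the log2FC turned in 23 of these where neither fit made a call (Igf2, Igf2r and Cdkn1c 1 time each), 17 lost a call, 13 gained one, 2 counts moved by more than 1.5 times and 0 calls reversed. The counts that moved were the IGF axis genes called higher, 5 under quantile normalization (with Htra1 and Stc2) against 3, and the imprint control factors called higher, 1 without KE replicate 2 (Arid4a) against 0 (0 to 1 over the 6 fits that leave out a culture). Beyond the genes named above, Gnas lost its call under quantile normalization, without the variance trend and without KE replicate 1, NT replicate 1 or NT replicate 3, and Snrpn without the variance trend, KE replicate 2 or NT replicate 1. Htra1 also passed with a mean of at least 50, with the replicate block and without NT replicate 3. Of the 10 imprinted growth genes, 3 instead of 2 were called higher in some settings. The added gene was Meg3 with the replicate block, under quantile normalization and without KE replicate 2, and Dlk1 without NT replicate 3. Rian also lost its call under quantile normalization (−0.32) and without the variance trend. The cause was not tested. Quantile normalization moved the median of all tested genes to 0.03.

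The labels give both groups replicate numbers 1 to 3. Deviations of same-numbered cultures correlated at 0.059, 0.066 and 0.065 and those of other pairs at −0.05 to −0.01, so each culture correlated best with its own number. These correlations were weak, and whether the numbers are pairs is not settled by them. The main fit leaves the numbers out. With the replicate block 3967 genes were called higher and 4079 lower in KE, against 3870 and 3974 without it. Igf2, Dlk1 and Cdkn1c have the fewest reads of the 10 genes, approximately 10.5 to 45.04 per culture, and counting error was not separated from the spread between cultures.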

Other observations

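Genes of the lysosomal sorting machinery that works with the IGF2R protein, picked from the list of relatives and partners after their values were seen, gave the following values. Gnptab, which encodes the catalytic part of the enzyme that tags lysosomal proteins for the receptor, fell from 1854 ± 135 to 1303 ± 73.9 normalized counts (SD, n = 3 each; log2FC −0.51, SE 0.07, limma adjusted p = 0.000178). Gnptg, the third subunit of that enzyme, rose from 617 ± 50.3 to 853 ± 50.8 (0.47, SE 0.09, limma adjusted p = 0.000965). The smaller receptor of the same tag, M6pr, did not pass (0.04, SE 0.06), nor did Nagpa, the uncovering enzyme (0.14, SE 0.11). Of the adaptors that load these receptors into vesicles, Gga2 and Gga3 fell, with log2FC of −0.32 and −0.47, and Gga1 did not pass (0.11, SE 0.07). Over the list that holds these genes with the relatives of the 10 imprinted genes, 2 of 16 tested genes rose, 7 fell and 7 did not pass, 56.2% called against 51.3% of all tested genes (12.5% upward and 43.75% downward against 25.3% and 26.0%). The median log2FC of this list was −0.18 beside 0.00 over all tested genes.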
